A study of Mus musculus with 6 samples.

Results

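The visual cycle is the enzyme pathway that returns spent all-trans retinal from the photoreceptors to 11-cis retinal, the light-sensitive form. Its expression was examined at the RNA level in whole retinas, WT or Wfs1-KO, through 9 genes, Rpe65, Lrat, Rdh5, Rgr, Rlbp1, Rbp3, Rdh8, Rdh12 and Rdh10, which were chosen by name among the 55376 genes of the count table. All 9 were present and passed the filter on low counts that left 18547 genes. The 3 WT and 3 Wfs1-KO retinas were collected at postnatal day 240 from mice labelled with the strain C57x129, while the methods name C57BL/6 J, and each library is described as 1 mouse. The mutant carries a targeted deletion of exon 8 of Wfs1, which encodes the endoplasmic reticulum protein wolframin. Wild-type animals carry no engineered allele, and no treatment is named for either genotype.

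In the pathway, RDH8 and RDH12, dehydrogenases of the photoreceptors, reduce all-trans retinal to all-trans retinol, and RBP3 is the retinoid-binding protein of the space between the photoreceptors and the pigment epithelium. In the pigment epithelium LRAT esterifies the retinol, RPE65 converts the ester to 11-cis retinol, and RDH5 oxidises that to 11-cis retinal, which is carried by the binding protein encoded by Rlbp1. RGR is an opsin of the pigment epithelium and Müller glia, Rlbp1 is also expressed by Müller glia, and RDH10 is a retinol dehydrogenase. A retina lifted from the eye can keep part of the adjoining pigment epithelium, so the members with most of their expression in that layer were read beside other pigment epithelium genes.

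Lrat was lower in each of the 3 mutant retinas than in any WT retina, and so was its ratio to Rpe65 within each library, a ratio chosen after the values were seen. Rpe65, Rdh5 and Rgr were lower in mutant replicates 1 and 3 and high in mutant replicate 2, a library that also carried more RNA of pigment and blood genes. Rdh12 was lower in all 3 mutant retinas by a smaller amount, Rlbp1 overlapped between genotypes, and Rdh8 was low in mutant replicate 2 alone.

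The windows before the start sites of 3 members are shown because these genes had unlike profiles across the retinas: Lrat and Rpe65 act in consecutive steps of the same cell and differed in how they varied, and Rbp3 is the most abundant photoreceptor member. Sequences were taken from RefSeq on GRCm38.p6, 5′ to 3′ along the gene's strand, and cover the 150 bases before the annotated start at chr3:159599031-159599180 (plus strand) for Rpe65, chr3:82903975-82904124 (minus strand) for Lrat and chr14:33953853-33954002 (plus strand) for Rbp3. Capitals mark TAATCC or its reverse complement GGATTA, the core letters bound by the homeodomain factors CRX and OTX2 of photoreceptors and pigment epithelium, and CATGTG or its reverse complement CACATG, an E-box.
Rpe65: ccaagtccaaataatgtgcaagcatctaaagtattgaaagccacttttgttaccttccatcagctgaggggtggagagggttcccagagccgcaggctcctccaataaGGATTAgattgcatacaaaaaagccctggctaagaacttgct
Lrat: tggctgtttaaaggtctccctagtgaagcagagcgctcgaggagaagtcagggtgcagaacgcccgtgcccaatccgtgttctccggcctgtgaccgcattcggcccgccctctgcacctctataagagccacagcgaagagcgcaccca
Rbp3: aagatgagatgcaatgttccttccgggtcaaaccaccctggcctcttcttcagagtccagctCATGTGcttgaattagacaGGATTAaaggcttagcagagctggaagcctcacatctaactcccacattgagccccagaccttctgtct

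The search covered the 250 bases before the start on both strands, for the 8 members found in the promoter table. Rpe65 had GGATTA with its first base 42 bases before the start and CACATG at 239 bases, outside the stretch printed. Rbp3 had GGATTA at 69 bases and CATGTG at 88 and 213 bases. Rgr held TAATCC at 167 bases and Rlbp1 held CACATG at 124 bases. TAATCC or its complement was present in 3 of the 8 members and in 6.25% of all 32851 promoters of that length, and CATGTG or its complement in 3 of 8 and in 12.3%. The E-box CACGTG was in 0 of 8 members and in 6.02% of promoters. The Lrat window held none of these letters, nor did those of Rdh5, Rdh8 and Rdh12.

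Wfs1 itself was lower in every library labelled Wfs1-KO, with 64.9, 61.4 and 69.9 CPM (counts over the TMM-scaled library size) in WT replicates 1, 2 and 3 and 9.63, 0.900 and 11.5 CPM in mutant replicates 1, 2 and 3. The 8.88-fold lower level of this targeted gene (log2 fold change -3.15, SE 0.77) also missed the threshold of edgeR on all 6 retinas (Benjamini-Hochberg adjusted p = 0.979), while DESeq2 called it (adjusted p = 0.00403) and edgeR did so without mutant replicate 2 (adjusted p = 2.84e-05). A member without a call on all 6 retinas is therefore not shown to be alike in the genotypes. Total counts ranged from 17916885 in WT replicate 3 to 101334381 in mutant replicate 1. A floor of 3 counts corresponds to between 0.0291 and 0.170 CPM in these libraries, so each member stood above that floor in every retina. Retinal identity was clear in all 6 libraries, since 26 photoreceptor markers summed to between 82547 and 106980 CPM and Glul, the glutamine synthetase of Müller glia, had between 1949 and 3245 CPM. Mutant replicate 2 stood apart: the common dispersion of the edgeR fit was 0.128 with it and 0.0322 without it, and results are given both ways. WT replicate 3 was the sole library with Y-linked Ddx3y, at 1137 counts against 0 to 2 in the others, so sex was not balanced between genotypes and its part in the results was not tested. As no source gives a batch or a day of dissection, none could be modelled.

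Levels between genes were compared as RPKM, CPM divided by the exon length in kilobases. In WT retinas the order was Rbp3 at 991 ± 195 RPKM (SD, n = 3), Rlbp1 at 256 ± 21.8, Rdh12 at 234 ± 4.75, Rdh8 at 51.8 ± 7.41, Rdh10 at 14.7 ± 2.02, Rgr at 11.0 ± 2.11, Rpe65 at 7.38 ± 3.76, Rdh5 at 5.02 ± 0.518 and Lrat at 1.60 ± 0.578. The photoreceptor and Müller glia members therefore headed the order and the pigment epithelium members closed it. The WT ranges of Rdh10 and Rgr overlapped, as did those of Rgr and Rpe65 and of Rpe65 and Rdh5, so the order within each of these neighbouring pairs did not exceed the spread.

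**Figure D1:**
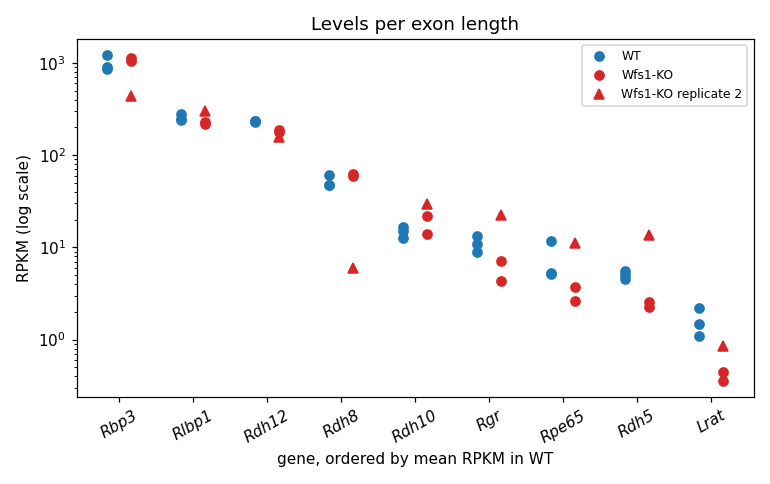
RPKM on a log axis of the 9 genes in each retina, ordered by the WT mean, with WT in blue, Wfs1-KO in red and mutant replicate 2 as a triangle. The WT means run from 991 RPKM for Rbp3 to 1.60 RPKM for Lrat, and the triangles lie above the WT points for Rgr, Rdh5, Rdh10 and Rlbp1 and below them for Rbp3, Rdh8, Rdh12 and Lrat.

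WT retinas already differed in the pigment epithelium members. The highest WT level of Rpe65 was 2.31 times the lowest and that of Lrat 2.05 times, both highest in WT replicate 2, whereas for Rdh12 the ratio was 1.04. On the log2 CPM scale the SD over WT retinas was 0.675 for Rpe65 and 0.515 for Lrat, against a median of 0.241 over all tested genes. Rdh5, another pigment epithelium enzyme, had an SD of 0.148 and was below that median.

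Rpe65 (ENSMUSG00000028174.12), the retinoid isomerohydrolase, spans bases 159599175 to 159625321 of the plus strand of chromosome 3 (mm10). Its levels were 9.47, 21.8 and 9.93 CPM in WT replicates 1, 2 and 3 and 6.91, 20.8 and 4.88 CPM in the mutant replicates, so the genotypes overlapped through both replicates numbered 2. The log2 fold change, Wfs1-KO over WT, was -0.34 with an SE (standard error) of 0.59 and did not pass the quasi-likelihood test of edgeR (Benjamini-Hochberg adjusted p = 0.979). With mutant replicate 2 left out, all WT retinas lay above both mutants, and the log2 fold change was -1.22 (SE 0.35, adjusted p = 0.551, edgeR). DESeq2 on the same 5 retinas gave -1.23 (adjusted p = 0.0314, Benjamini-Hochberg), so the call depended on the tool. Leaving out WT replicate 2 or mutant replicate 3 instead turned the sign, to 0.16 and 0.0030.

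Lrat (ENSMUSG00000028003.6), the lecithin retinol acyltransferase, lies on chromosome 3 from 82892579 to 82903973 on the minus strand. It had 5.83, 11.9 and 7.95 CPM in the WT and 2.38, 4.59 and 1.91 CPM in the mutant retinas. The lowest WT value stood above the highest mutant value. The log2 fold change was -1.54 (SE 0.42), a 2.90-fold lower fitted level, with an unadjusted p of 0.00779 and an adjusted p of 0.979 (edgeR with Benjamini-Hochberg adjustment), and did not pass. DESeq2 on all 6 retinas gave an adjusted p of 0.139. Without mutant replicate 2 Lrat passed, with -1.99 (SE 0.31) on the log2 scale, a 3.98-fold lower level, and an adjusted p of 0.0467 in edgeR and 7.79e-08 in DESeq2. The estimate stayed between -1.99 and -1.22 when any of the 6 retinas was left out, and mutant replicate 2 was the omission that brought an edgeR adjusted p below 0.05.

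Rdh5 (ENSMUSG00000025350.15), the 11-cis retinol dehydrogenase, lies on chromosome 10 from 128913593 to 128922888 on the minus strand and shares exon bases with Bloc1s1 on the same strand, so its counts carry that uncertainty. Its levels were 6.29, 6.98 and 5.68 CPM in WT and 3.19, 17.0 and 2.86 CPM in mutant retinas. Mutant replicates 1 and 3 were below every WT retina and mutant replicate 2 above all of them. On all retinas the log2 fold change was 0.28 (SE 0.67), and leaving out mutant replicate 2 gave -1.07 (SE 0.22), with adjusted p-values of 0.979 and 0.185 in edgeR and of 0.993 and 0.0033 in DESeq2.

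Rgr (ENSMUSG00000021804.6), the retinal G protein-coupled receptor opsin, lies on chromosome 14 from 37034909 to 37048964 on the minus strand. It showed the same arrangement, with 42.5, 62.4 and 51.3 CPM in WT and 33.5, 105.5 and 20.5 CPM in mutant retinas. Its log2 fold change was 0.03 (SE 0.56) on all retinas and -0.95 (SE 0.22) without mutant replicate 2, with adjusted p-values of 0.996 and 0.331 in edgeR and of 0.998 and 0.00767 in DESeq2. Because bulk RNA was measured, fewer pigment epithelium cells in a library and less RNA per cell cannot be told apart for any of these genes.

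**Figure D2:**
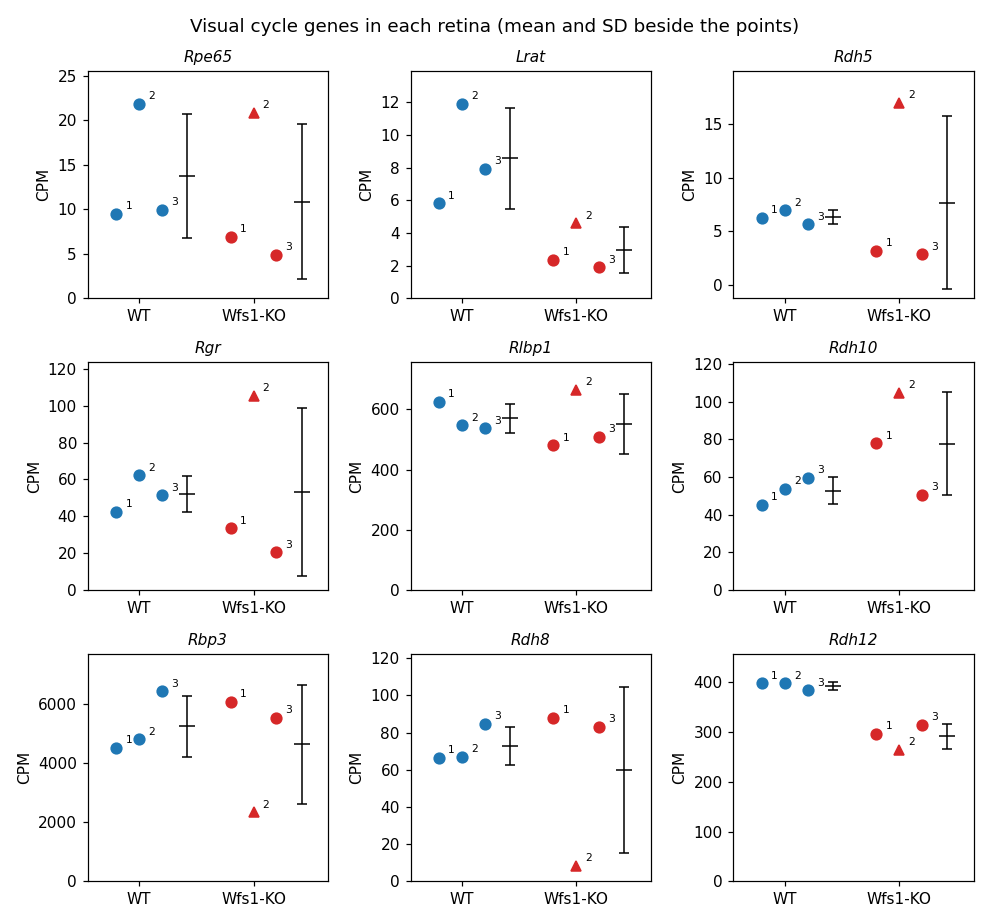
CPM of the 9 genes in each retina, with replicate numbers beside the points, mutant replicate 2 as a triangle, and the mean with its SD as a black bar. Lrat and Rdh12 separate the genotypes without overlap, while the triangle is the highest mutant point for Rpe65, Rdh5 and Rgr and lies at 8.41 CPM for Rdh8.

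Among the photoreceptor members, Rdh12 (ENSMUSG00000021123.12, chromosome 12, 79208914 to 79222665, plus strand) had 397.8, 398.1 and 384.1 CPM in WT and 296.5, 264.2 and 314.2 CPM in mutant retinas. The genotypes did not overlap, and the SD of the log2 values within WT was 0.0294, the smallest of the 9. The log2 fold change was -0.43 (SE 0.16), a 1.35-fold lower level, with an unadjusted p of 0.0283 and an adjusted p of 0.979 (edgeR with Benjamini-Hochberg adjustment). Without mutant replicate 2 it was -0.37 (SE 0.12, adjusted p = 0.687, edgeR). Relative to Rbp3, another photoreceptor gene, the groups overlapped: Rdh12 counts per 100 Rbp3 counts were 8.81, 8.29 and 5.97 in WT and 4.89, 11.3 and 5.69 in mutant retinas.

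Rdh8 (ENSMUSG00000053773.5, chromosome 9, 20818503 to 20826117, plus strand) had 66.6, 66.8 and 84.7 CPM in WT and 87.9, 8.41 and 83.2 CPM in mutant retinas. Mutant replicate 2 was 9.89-fold below the median of the other 5 retinas, and 1.51% of the tested genes had a still lower shift in this library. Rdh8 counts per 100 Rbp3 counts were 0.361 in mutant replicate 2 and between 1.32 and 1.51 in the other retinas. Rbp3 (ENSMUSG00000041534.9, chromosome 14, 33954003 to 33964216, plus strand) had 4514, 4802 and 6429 CPM in WT and 6060, 2330 and 5519 CPM in mutant retinas, 2.37-fold below the median in mutant replicate 2. The log2 fold changes of both genes turned from negative to positive without that retina, Rdh8 from -0.28 (SE 0.71) to 0.23 (SE 0.15) and Rbp3 from -0.18 (SE 0.36) to 0.14 (SE 0.15), and neither passed in edgeR or DESeq2. Exons of Rdh8 and Rbp3 have a GC content of 56.3% and 55.7%, in the fifth of genes with the highest GC, whose log2 shift in mutant replicate 2 had a median of 0.20 and quartiles of -0.451 and 0.861. The part of GC content in their low values was not tested.

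Rlbp1 (ENSMUSG00000039194.16, chromosome 7, 79374870 to 79387048, minus strand), which encodes the cellular retinaldehyde-binding protein, had 625.3, 547.7 and 536.5 CPM in WT and 480.3, 664.8 and 508.2 CPM in mutant retinas. The log2 fold change was -0.05 (SE 0.19, adjusted p = 0.982, edgeR with Benjamini-Hochberg adjustment), and without mutant replicate 2 it was -0.21 (SE 0.13). Counts of Rlbp1 per 1000 Glul counts were 192.7, 184.6 and 172.4 in WT and 206.6, 341.2 and 189.4 in mutant retinas, with mutant replicate 2 above the rest. Glul was itself at lower levels in the 3 mutant retinas than in WT (log2 fold change -0.42, SE 0.18, adjusted p = 0.979, edgeR). Rdh10 (ENSMUSG00000025921.7, chromosome 1, 16105774 to 16133734, plus strand) had 45.1, 53.8 and 59.5 CPM in WT and 78.0, 104.9 and 50.5 CPM in mutant retinas. The genotypes overlapped, and the log2 fold change was 0.56 (SE 0.28, adjusted p = 0.979, edgeR), or 0.28 (SE 0.19) without mutant replicate 2.

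**Figure D3:**
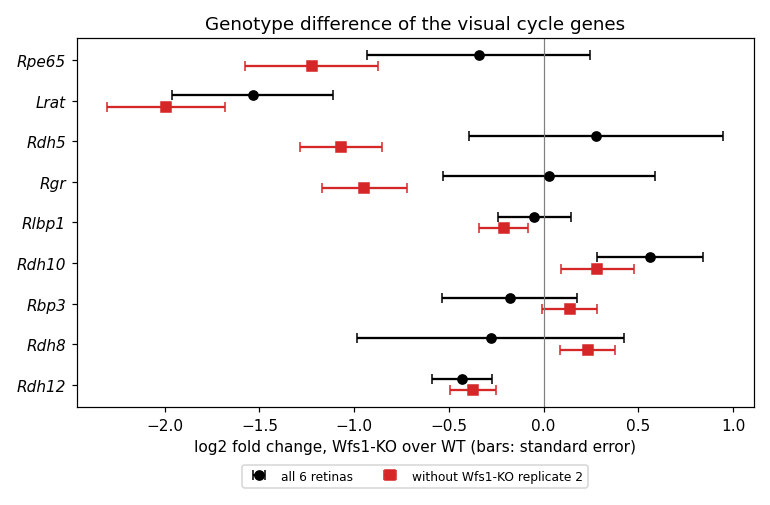
Fitted log2 fold changes of the 9 genes, Wfs1-KO over WT, with standard errors (SE) as bars, for all 6 retinas (black circles) and without mutant replicate 2 (red squares). Lrat is the most negative in both fits, at -1.54 and -1.99, and the bars of all 9 genes are shorter without mutant replicate 2.

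Counted over the members, 0 of 9 had an edgeR adjusted p under 0.05 on all 6 retinas, where 2 of 18547 genes did (0.0108%), and 0 of 9 passed in DESeq2, where 52 genes did (0.280%). At an unadjusted p under 0.05 in edgeR, 2 of 9 were lower (Lrat and Rdh12), against 0.566% of all tested genes, and 0 of 9 were higher, against 2.24%. The CPM of the genotypes did not overlap for 2 of 9 members, both lower, against 3.94% of all genes lower, and for 0 members in the other direction, against 5.01%. Without mutant replicate 2, edgeR called 1 of 9 (Lrat, background 0.125%) and DESeq2 called 4 of 9 (Lrat, Rdh5, Rgr and Rpe65, all lower, background 0.490%). In that edgeR fit 5 of 9 were lower at an unadjusted p under 0.05 against 2.39% of genes, 0 were higher against 2.80%, and 6 of 9 did not overlap, all lower, against 11.0%. Lower values without overlap were also common among the photoreceptor markers, with 8 of 26 on all 6 retinas and 16 of 26 without mutant replicate 2. The counts without overlap therefore do not set the members apart from that list. At an unadjusted p under 0.05 in edgeR, 1 of the 26 was lower on all 6 retinas and 7 without mutant replicate 2. In neither edgeR fit was any of the 26 called. The median log2 fold change over the 9 was -0.18 on all retinas and -0.37 without mutant replicate 2, beside 0.02 and -0.0004 over all tested genes.

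The ratio of Lrat to Rpe65, measured in the same library, was chosen after the values were seen. Per 100 Rpe65 counts there were 61.5, 54.6 and 80.0 Lrat counts in WT replicates 1, 2 and 3 and 34.4, 22.0 and 39.1 in the mutant replicates. The groups did not overlap, as was also true in this direction for 0.0701% of the genes set against Rpe65, and mutant replicate 2 had the lowest ratio. That share depends on the denominator as well as on Lrat. Rpe65 was itself lower in mutant replicates 1 and 3 (6.91 and 4.88 CPM), which raises ratios to it there. The mean log2 ratio differed by -1.06, mutant minus WT, a 2.08-fold lower value in the mutants (2-sided exact permutation test, p = 0.1, the smallest that 3 against 3 allows, and 0.15 after Benjamini-Hochberg adjustment over 3 such tests). Groups of 3 that do not overlap always give this p in that test. For a ratio chosen after the values were seen, the p-value therefore adds no support. The ratios of Rdh5 and Rgr to Rpe65 did not separate the genotypes. Rgr counts per 100 Rpe65 counts were 448.6, 285.6 and 516.6 in WT and 484.4, 506.2 and 419.5 in mutant retinas, and those of Rdh5 were 66.5, 32.0 and 57.1 and then 46.2, 81.5 and 58.6, both with overlapping groups.

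**Figure D4:**
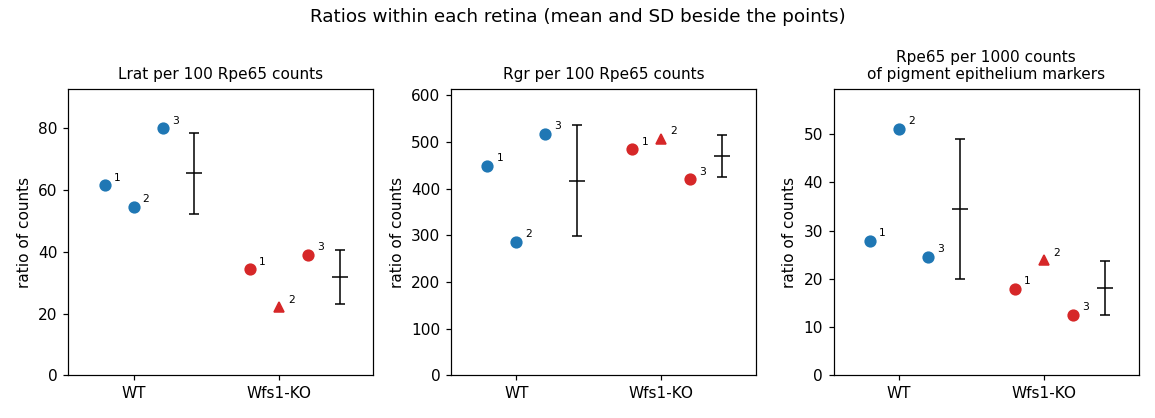
Ratios of counts within each library for Lrat to Rpe65, Rgr to Rpe65 and Rpe65 to the 32 pigment epithelium markers, with replicate numbers, mutant replicate 2 as a triangle, and the mean with its SD as a black bar. Lrat per 100 Rpe65 counts lies between 54.6 and 80.0 in WT and between 22.0 and 39.1 in Wfs1-KO retinas, while Rgr per 100 Rpe65 counts overlaps.

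As markers of the pigment epithelium, 32 other genes were listed, and each had counts in every retina. Their summed level was 340.1, 426.9 and 404.2 CPM in WT and 384.3, 872.6 and 386.8 CPM in mutant retinas, so mutant replicate 2 was high and the genotypes overlapped (2-sided exact permutation test, p = 0.6). Abundant genes weigh most in this sum, such as Enpp2 with 73.2 CPM in WT replicate 1, and do not stand for each marker. Kcnj13, a potassium channel gene of this layer chosen after its values were seen, had 5.68 CPM in mutant replicate 2 and ranged from 0.613 to 3.38 CPM in the other 5 retinas. Clic6, on the same list, went the other way, with 17.7 CPM in mutant replicate 2 against 21.0 to 30.5 CPM. The 5 genes Best1, Rrh, Ttr, Kcnj13 and Slc16a8 summed to 68.7, 86.9 and 71.0 CPM in WT and 73.2, 293.6 and 48.1 CPM in mutant retinas. In mutant replicate 2 were the highest values of 22 of the 32 and the lowest of 2. The highest values of 10 of 20 Müller glia, 10 of 12 choroid and sclera and 6 of 26 photoreceptor markers were also in that library. The share over all genes was not computed, so the count does not set the pigment epithelium markers apart. Set against the 32 markers, Rpe65 had 27.8, 51.1 and 24.6 counts per 1000 counts in WT and 18.0, 23.9 and 12.6 in mutant retinas. The groups did not overlap, but WT replicate 3 and mutant replicate 2 were close, at 24.6 and 23.9. The denominator contains Krt18, which was itself higher in the mutants, with 44.8, 40.1 and 57.3 CPM in WT and 71.9, 171.9 and 84.0 CPM in mutant retinas. A denominator gene that is higher in the mutants lowers this ratio there, and the ratio without Krt18 was not computed. The share of all genes without overlap in this ratio was not computed. The mean log2 ratio differed by -0.90 between the genotypes, mutant minus WT (fold 1.86, exact permutation p = 0.1, adjusted 0.15). With 8 pigment genes as the denominator, the ratio was 703.6, 1569 and 543.5 per 1000 in WT and 678.7, 159.8 and 541.6 in mutant retinas, and the groups overlapped. Lrat per 1000 pigment gene counts did not overlap, at 432.9, 856.5 and 434.8 in WT and 233.6, 35.2 and 211.6 in mutant retinas. For that ratio too, the share of all genes was not computed.

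The 8 pigment genes, which encode melanosome enzymes and proteins, summed to between 9.01 and 18.3 CPM in 5 retinas and to 130.4 CPM in mutant replicate 2. Blood genes (7) summed to between 12.3 and 41.3 CPM in 5 retinas and to 480.5 CPM in that retina, lens genes (20) to 2.77 to 6.04 and 14.9 CPM, and choroid and sclera genes (12) to 67.3 to 115.5 and 128.9 CPM. Mutant replicate 2 held the highest value of 10 of these 12 choroid and sclera genes. Col6a1, the largest part of their sum in the other retinas, went the other way, with 23.8 CPM in mutant replicate 2 against 48.6 to 89.0 CPM. The 26 photoreceptor markers summed to 82547 CPM in mutant replicate 2 and to between 95088 and 106980 CPM elsewhere, with both other mutant retinas below the WT range. Müller glia markers (20) summed to 10904 CPM in mutant replicate 2, to 7084 and 7271 CPM in mutant replicates 1 and 3 and to between 7697 and 8231 CPM in WT. This sum does not stand for each marker, as 10 of the 20 were highest and 8 lowest in mutant replicate 2. Apoe alone had 3627 CPM in that retina and between 617 and 972 CPM elsewhere. The part of these other tissues in the levels of Rpe65, Rdh5 and Rgr was not tested.

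**Figure D5:**
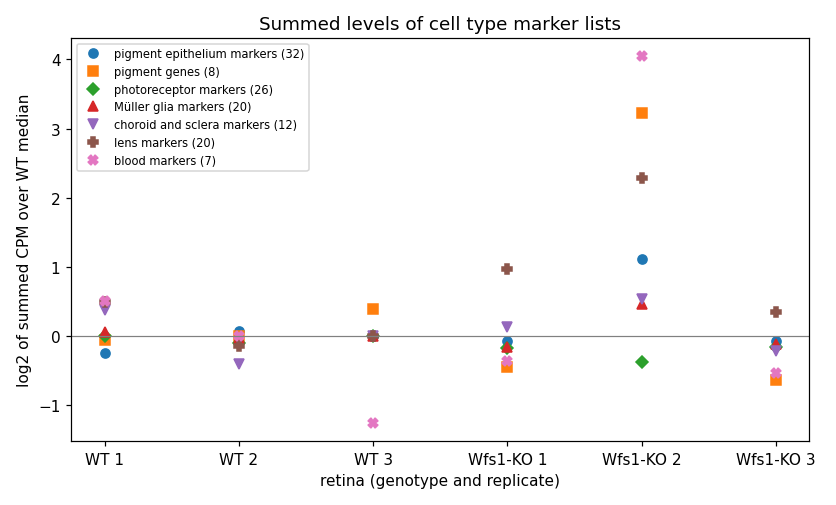
Summed CPM of the marker lists in each retina, as log2 over the WT median of the same list, with the number of genes per list in the legend. Mutant replicate 2 is highest for blood (480.5 CPM), pigment (130.4 CPM), lens (14.9 CPM) and pigment epithelium markers (872.6 CPM). It is also highest for the sums of Müller glia (10904 CPM) and choroid and sclera markers (128.9 CPM), and lowest for photoreceptor markers (82547 CPM). Single Müller glia markers went both ways, with 10 of 20 highest and 8 lowest in that retina.

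Of 36 other retinoid genes, 35 were in the table and 26 passed the filter. On all retinas 0 passed in edgeR or in DESeq2, 2 of 26 were higher (2.24% of all genes) and 1 lower (0.566%) at an unadjusted p under 0.05, and the median log2 fold change was 0.30, against 0.02 over all genes. Rrh, the pigment epithelium opsin peropsin, had 17.4, 18.5 and 15.5 CPM in WT and 26.2, 30.6 and 24.4 CPM in mutant retinas (log2 fold change 0.66, SE 0.18, unadjusted p = 0.00736, adjusted p = 0.979, edgeR with Benjamini-Hochberg adjustment). Its direction was opposite to that of Lrat, and the groups did not overlap. Cyp26a1, which degrades retinoic acid, had 3.04, 2.73 and 2.44 CPM in WT and 4.27, 4.69 and 4.63 CPM in mutant retinas (log2 fold change 0.72, SE 0.24, unadjusted p = 0.0191, adjusted p = 0.979, edgeR). Rdh11, a retinol dehydrogenase that lies next to Rdh12 on chromosome 12 with 16620 bases and 0 annotated genes between them, had 71.0, 78.2 and 67.9 CPM in WT and 53.2, 41.8 and 59.3 CPM in mutant retinas. As for Rdh12 the groups did not overlap, and its log2 fold change was -0.49 (SE 0.19, unadjusted p = 0.0316, adjusted p = 0.979, edgeR).

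Without mutant replicate 2, 28 of the other retinoid genes were tested, 0 passed, 2 were higher (2.80% of all genes) and 5 lower (2.39%) at an unadjusted p under 0.05, and the median was -0.02. Dhrs3, a retinal reductase, had 135.2, 109.7 and 119.1 CPM in WT and 88.6, 175.5 and 92.1 CPM in mutant retinas. Its log2 fold change went from -0.03 to -0.43 (SE 0.14, adjusted p = 0.682, edgeR) without the high mutant replicate 2. Ttr, which encodes the retinol carrier transthyretin, had 43.3, 58.7 and 45.7 CPM in WT and 39.3, 234.5 and 17.1 CPM in mutant retinas, and its log2 fold change went from 0.98 to -0.80. Abca4, the retinoid flippase of the outer segments, had 1219 to 1670 CPM in WT and 1530, 963 and 1545 CPM in mutant retinas, with a log2 fold change of -0.05 and, without mutant replicate 2, of 0.13. Aldh1a2, which makes retinoic acid, was at or under 0.336 CPM in every retina, was tested in the fit of 5 retinas alone and had a log2 fold change there of -2.35 (SE 0.84, adjusted p = 0.792, edgeR).

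Of the pigment epithelium markers, 31 of 32 passed the filter on all retinas, 0 passed in edgeR or DESeq2, 3 were higher (2.24% of all genes) and 0 lower (0.566%) at an unadjusted p under 0.05, and the median log2 fold change was 0.45, with 24 above 0. Without mutant replicate 2 the median of the 32 was -0.28, 2 were higher (2.80% of all genes) and 7 lower (2.39%) at an unadjusted p under 0.05, 20 were below 0, and 9 did not overlap and were lower (11.0% of all genes). Krt18, a keratin of epithelia, had 44.8, 40.1 and 57.3 CPM in WT and 71.9, 171.9 and 84.0 CPM in mutant retinas, with a log2 fold change of 1.21 (SE 0.35) that was 0.72 (SE 0.17) without mutant replicate 2. Its adjusted p-values were 0.979 and 0.309 in edgeR, and 0.0273 in DESeq2 on the 5 retinas. Rab38, a melanosome trafficking gene, had 11.8 CPM in mutant replicate 2 and between 1.22 and 2.34 CPM elsewhere, and its log2 fold change fell from 1.95 to 0.50 without that library. Tyr, the tyrosinase of melanin synthesis, had 1.02, 3.11 and 1.82 CPM in WT and 0.679, 4.45 and 0.681 CPM in mutant retinas. Ermn, which encodes the cytoskeletal protein ermin, had 1.78, 3.40 and 2.84 CPM in WT and 1.34, 2.77 and 1.02 CPM in mutant retinas. Both were lower without mutant replicate 2 at an unadjusted p under 0.05 in edgeR, Tyr by a log2 fold change of -1.54 (SE 0.46) and Ermn by -1.16 (SE 0.35), and neither passed after adjustment.

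Genes with profiles most like those of Rpe65, Rlbp1 and Rbp3 were ranked by the root mean square difference of centred log2 CPM over the 6 retinas, and share these libraries and their depth. For Rpe65 they were Slc6a20a (0.157), an amino acid transporter gene on the pigment epithelium list, Ifit1bl1 (0.232), Pon1 (0.249), Slc15a3 (0.250) and Gm10073 (0.253). Slc6a20a had 2.62, 4.56 and 2.55 CPM in WT and 1.87, 4.69 and 1.32 CPM in mutant retinas, with the same high replicates 2 as Rpe65. For Rlbp1 they were Tubb4b (0.0211), Abhd6 (0.0292), Dctn5 (0.0308), Bcap31 (0.0322) and Pbx2 (0.0348), and for Rbp3 Gm47113 (0.0429), Kif13b (0.0485), Fhod3 (0.0493), Ago1 (0.0561) and Trio (0.0582). The nearest neighbour of Rpe65 was thus farther from it than the fifth of Rlbp1 or Rbp3 was from its gene.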

How the data were processed

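Whole-retina RNA was sequenced from TruSeq libraries of 3 WT and 3 Wfs1-KO mice. The authors trimmed reads with Trimmomatic, mapped them to mm10 with STAR and deposited raw featureCounts counts per gene, without normalization. The submitters' processing notes give Trimmomatic 0.39, STAR 2.5.3a and featureCounts 1.6.4. The methods name other versions and a column kit, while the labels name Trizol. Multi-mapping and strand settings are not given in the sources used here. Columns were used where genotype letter and replicate number matched a listed sample, and 2 library columns matching none were not used.

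From the counts, edgeR 4.0.16 (R 4.3.3) was run with filterByExpr, TMM factors and the quasi-likelihood test on genotype over all 6 retinas, and p-values were adjusted by Benjamini-Hochberg over all tested genes. Standard errors were taken from the F statistic. DESeq2 1.42.0 and limma-voom 3.58.1 were alternatives. CPM used TMM library sizes, and RPKM divided by the exon length deposited with the counts. Gene positions and GC content were taken from GENCODE M21. The fit was tested on simulated data. In each genotype pairs of libraries differed by far more than sampling noise, so none was counted as a duplicate. Replicate numbers do not mark shared animals, and the correlations of deviations for numbers 1, 2 and 3 were -0.234, -0.111 and 0.0784.

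The members, gene lists and tests were chosen with earlier results of these data known. Named were all 9 members, Wfs1 and Glul as checks (1 further check gene is not reported here), and from the other retinoid and the pigment epithelium lists up to 6 genes with the smallest unadjusted p under 0.05 on all retinas, up to 4 without mutant replicate 2 and the 2 with the highest RPKM, plus the 5 nearest profiles of Rpe65, Rlbp1 and Rbp3. DESeq2 without mutant replicate 2 and the Lrat to Rpe65 ratio were added after the data were seen. The p-values of the fits set a genotype difference against the spread between these mice, and those of the permutation test against relabelled groups.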

Additional observations from a re-analysis of the deposited data

How the results depend on the processing

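No member was called by edgeR on all 6 retinas, nor with DESeq2, limma-voom, other scalings, other filters or the replicate block. The count ranged from 0 to 1 when 1 retina was left out, with 1 (Lrat) without Wfs1-KO replicate 2, and it was 4 with DESeq2 without that retina, where 1 pigment epithelium marker (Krt18) was also called. Over all genes, 2 were called by edgeR, 52 by DESeq2, 9 with no filter, 1 with the replicate block, 24 without Wfs1-KO replicate 2 and 94 with DESeq2 without it. Leaving out WT replicate 1, 2 or 3 gave 0 calls in edgeR, where 314, 303 and 378 genes had an unadjusted p below 0.05, and leaving out Wfs1-KO replicate 1 or 3 gave 1 each.

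Of 330 alternative log2 fold changes of 22 named genes, 298 kept their sign and 32 did not, over 10 genes. The sign of Lrat, Rdh12 and Rdh10 held in all alternatives run. Rdh5 was -0.36 with limma-voom, and Rgr was -0.31 with limma-voom and -0.024 with no filter. DESeq2 without Wfs1-KO replicate 2 gave -1.07 for Rdh5, -0.95 for Rgr, 0.14 for Rbp3, 0.23 for Rdh8, 0.13 for Abca4 and -0.81 for Ttr, and upper-quartile scaling gave 0.0066 for Tyr. Leaving out 1 retina at a time, the range was -1.22 to 0.16 for Rpe65, -1.07 to 0.66 for Rdh5, -0.95 to 0.41 for Rgr, -0.21 to 0.039 for Rlbp1, -0.42 to 0.14 for Rbp3, -0.67 to 0.23 for Rdh8, -0.43 to 0.14 for Dhrs3, -0.16 to 0.13 for Abca4, -0.80 to 1.47 for Ttr and -1.54 to 0.46 for Tyr. The log2 difference of the summed pigment epithelium markers ranged from -0.01 to 0.58, with -0.01142 without Wfs1-KO replicate 2 and 0.38 on all retinas. Beyond the libraries left out, the cause was not tested.

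The replicate numbers share no animal, and 0 of the 3 numbers had its best match in the same number. With the replicate block the log2 fold change was -1.57 for Lrat, -0.51 for Rpe65, -0.25 for Rdh5 and -0.30 for Rgr (adjusted p = 0.992 for each in edgeR), so the signs of Rdh5 and Rgr turned.

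With 3 retinas a group an exact permutation test cannot go below 0.1, and the 17916885 counts of WT replicate 3 set the coarsest floor.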
